A study of Rattus norvegicus with 6 samples.

Results

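The genes described here are 40 tested members of a list of immediate early and stress response genes, read in total lung from Sprague-Dawley rats. The list held 42 symbols, and its members were taken as the entries of the deposited table whose symbol was on it. Of the 42, 41 were found among 19828 entries, and 40 of these 41 were tested. Maff2 was not found, and Egr4 was below the filter on low values, at 1 in 1 wild-type library and listed at 0 in the other 5. Wild type (WT) was compared with Ahr knockout (Ahr-KO), with 3 libraries in each group. Every sample in both groups was labelled with Sugen-Hypoxia treatment and day 56, so no untreated lung stands beside them. Sugen blocks the receptors of vascular endothelial growth factor, and together with low oxygen it gives a rat model of pulmonary arterial hypertension. Ahr encodes the aryl hydrocarbon receptor, a transcription factor that ligands activate. The sources used here give neither the age of the rats, nor the kind of Ahr edit, nor the hour of tissue collection. Nothing in the labels ties each library to its own animal, and the p-values therefore cover only the spread among these 6 samples, part of which may be technical.

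Immediate early genes are switched on within minutes of a stimulus, from transcription factors that are already present in the cell and that kinases such as ERK and p38 activate. Many encode transcription factors themselves (the FOS, JUN, EGR, NR4A and KLF families), and others shut the signal down again (the DUSP phosphatases) or hasten the decay of messenger RNA (ZFP36 proteins). Their transcripts are short-lived, and handling of a tissue can induce them, so they are known for varying between samples. Values are the deposited normalised values per gene, on a linear scale. The libraries carry the numbers 0, 1 and 2 within each group as the table gives them, and these serve only as names. Differences are Ahr-KO minus WT on the log2(value + 1) scale with their standard error (SE), and adjusted p-values come from limma's test across all tested genes with Benjamini-Hochberg adjustment.

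The libraries summed to 17.8 to 19.3 M in normalised value (M for mega), and the recurring step between values put the reads behind them at 17.8 to 23.6 M in libraries 0 and 1 of both groups and lower, at 12.9 and 14.2 M, in the WT and Ahr-KO libraries numbered 2. Cyp1a1, the classical target of the receptor, stood at 27085, 23512 and 37694 in the 3 WT libraries but at 10.5, 0.826 and 1.36 in Ahr-KO, so the libraries followed their labels. Ahr itself was read at 2940.0, 2860.4 and 3395 in WT and at 2399, 3923 and 3575 in Ahr-KO. Such a gene-level value does not check the labels, because the part of the gene that was edited is not known. Alveolar type 2 markers, among them the surfactant genes, summed to 480761 to 541900.0 per WT library and 600165 to 698178 per Ahr-KO library, so markers of the labelled tissue were present in all 6.

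The promoters of a few members are shown first, because immediate early genes are usually recognised by short elements close to their start. RefSeq promoters in build GRCr8, each with 250 bases before and 50 after a start, were matched by symbol to 29 of the 41 members, with 31 entries in all. The 4 sequences below are the 250 bases before the start of 2 members with CArG boxes (the site of serum response factor), 1 with a cAMP response element (CRE, TGACGTCA) and the 1 member that rose. Capitals mark those elements.
Egr2, chr20:21054442-21054691 (minus strand): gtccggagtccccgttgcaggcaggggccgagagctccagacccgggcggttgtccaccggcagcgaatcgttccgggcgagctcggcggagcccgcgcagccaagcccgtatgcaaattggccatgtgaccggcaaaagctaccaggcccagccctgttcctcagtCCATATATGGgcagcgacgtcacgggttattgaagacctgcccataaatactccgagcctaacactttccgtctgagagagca
Dusp5, chr1:262543524-262543773 (plus strand): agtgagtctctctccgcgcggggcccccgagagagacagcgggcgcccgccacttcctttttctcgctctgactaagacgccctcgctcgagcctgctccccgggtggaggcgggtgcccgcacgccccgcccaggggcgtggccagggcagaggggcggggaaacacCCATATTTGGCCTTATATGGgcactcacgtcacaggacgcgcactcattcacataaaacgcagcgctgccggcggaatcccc
Dusp1, chr10:17184603-17184852 (plus strand): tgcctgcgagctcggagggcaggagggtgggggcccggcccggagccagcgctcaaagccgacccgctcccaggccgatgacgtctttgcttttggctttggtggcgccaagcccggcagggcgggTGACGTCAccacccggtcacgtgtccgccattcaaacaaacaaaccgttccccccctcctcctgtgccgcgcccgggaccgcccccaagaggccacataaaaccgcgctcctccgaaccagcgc
Gadd45b, chr7:9430719-9430968 (minus strand): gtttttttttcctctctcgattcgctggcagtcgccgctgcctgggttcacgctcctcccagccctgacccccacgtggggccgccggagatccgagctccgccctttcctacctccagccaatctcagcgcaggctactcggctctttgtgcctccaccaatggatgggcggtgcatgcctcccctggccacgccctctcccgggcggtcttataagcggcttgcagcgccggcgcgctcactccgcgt
The Egr2 stretch holds 1 CArG box, the Dusp5 stretch 2 side by side, and the Dusp1 stretch 1 CRE, while the Gadd45b stretch holds no CArG box, CRE or AP-1 site.

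Both strands of all 300 bases were searched. Members without an entry, among them Egr3, Nr4a3, Atf3, Fos and Jun, could not be searched. Of the 7 members that passed the test between genotypes, 4 had an entry. A CArG box was found in 5 of 31 member promoters (16.1%) and in 1.35% of the 13305 promoters of tested genes. A CRE was found in 4 of 31 (12.9%) against 2.71%. The AP-1 site TGACTCA or TGAGTCA was in 1 of 31, a promoter of Sgk1, against 3.77%. The core that the AHR dimer binds, GCGTG, was in 17 of 31 (54.8%) against 45.3%. Its longer form TNGCGTG, which overlaps the core, was in 2 of 31 (6.45%), Dusp2 and Klf6, against 6.92%. The 5 searched members with a CArG box were Egr1, Egr2, Dusp5, Klf6 and Zfp36, with log2 differences of -2.57, -1.02, -0.58, -0.14 and 0.02. Those with a CRE were Dusp1, Btg2, Jund and Ier2, at -0.38, -0.27, -0.13 and -0.31. The members with a CArG box ranged from called decreases to no detectable difference, and none of those with a CRE passed the test. A match of letters does not show that a factor binds there.

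Between genotypes, 6 of the 40 tested members fell in the Ahr-KO lungs, 1 rose and 33 did not pass the test. The 6 were the EGR factors Egr1, Egr2 and Egr3, the nuclear receptor Nr4a3, the AP-1 family factor Atf3 and the phosphatase Dusp2. Gadd45b, a stress sensor, was the member that rose. The share of members called was 17.5%, beside 10.8% of all 15386 tested genes. In the downward direction it was 15% of members beside 6.26% of all genes, and upward 2.5% beside 4.50%. The median difference of the members was -0.35, beside 0.01 for all tested genes. Without both libraries numbered 2 the members' median was -0.58. A value below 0 was found for 34 of 40 members and for 49% of all genes.

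All 3 WT values lay above all 3 Ahr-KO values for 14 of 40 members (35%), beside 17.4% of all tested genes. The reverse order was found for 3 members (7.5%), Gadd45b, Gadd45g and Dusp4, beside 17.0% of all genes. The groups overlapped for the other 23 members. Across all genes, 692 were higher and 963 lower in Ahr-KO. With values rescaled to equal library totals the split was 449 and 1314, with 9 members lower and 1 higher. The count of members called was 0 without both libraries numbered 2, and 3 when WT library 0, or else 1 of Ahr-KO libraries 1 and 2, was left out. In those 4 fits the share of all genes called was also lower, at 3.69%, 4.63%, 3.46% and 2.67%.

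**Figure D1:**
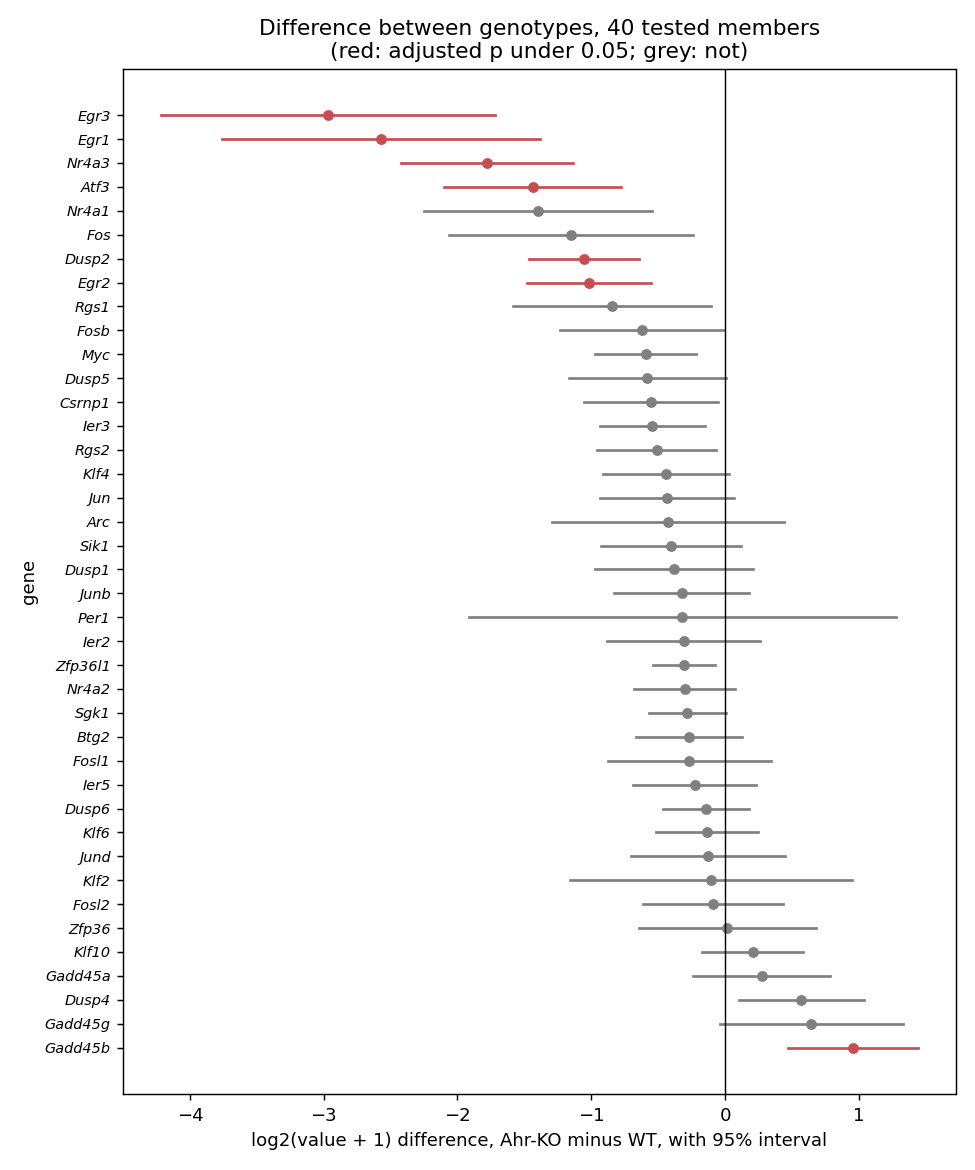
Difference in log2(value + 1), Ahr-KO minus WT, for the 40 tested members (points) with 95% intervals (lines), ordered by size; red marks an adjusted p under 0.05. Most points lie left of 0, with Egr3, Egr1 and Nr4a3 farthest left, and Gadd45b is the only red point on the right.

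The EGR genes encode zinc finger factors that serum, growth factors and antigen receptors induce. Egr3 and Egr1 held the largest decreases of the list. Egr1 stood at 1324, 253 and 603 in WT libraries 0, 1 and 2, whereas Ahr-KO libraries 0, 1 and 2 held 83.8, 121 and 92.8. Every WT value was above every Ahr-KO value, but the WT libraries themselves were far apart, with library 0 highest and library 1 lowest. The log2 difference was -2.57 ± 0.52, a 5.94-fold decrease (adjusted p = 0.021). Egr3 stood at 53, 18.1 and 36.4 in WT and at 4.03, 5.79 and 1.36 in Ahr-KO. The Ahr-KO values came from only a few reads each, and the groups did not overlap (-2.97 ± 0.54, adjusted p = 0.016). Egr2, known from T cell anergy and from nerve myelination, was tight in WT and less so in Ahr-KO. It stood at 209.9, 172 and 169 in WT and 92.7, 72.7 and 108 in Ahr-KO (-1.02 ± 0.20, 2.02-fold, adjusted p = 0.02). The Egr1 call was lost whichever Ahr-KO library was left out (highest adjusted p = 0.091), in limma without the trend (0.063) and in limma-voom (0.062). It held without WT library 0, where the difference was -1.99 (adjusted p = 0.035), and was -3.18 without WT library 1. Leaving out WT library 0 or 1, or Ahr-KO library 1, ended the call of Egr2 (adjusted p up to 0.07). For Egr3 this held for WT library 0 and Ahr-KO library 2 (up to 0.061).

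The NR4A genes encode orphan nuclear receptors that respond to growth factors, inflammation and calcium. Nr4a3 had the lowest p of the list. It stood at 43, 69.8 and 51.8 in WT and at 13.7, 14.9 and 16.4 in Ahr-KO (-1.78 ± 0.28, 3.44-fold lower, adjusted p = 0.011). The Ahr-KO libraries differed little, and Nr4a3 passed in each fit that left out 1 library. Nr4a1 followed the order of Egr1 in WT, at 1416, 431 and 799, against 266, 309 and 323 in Ahr-KO. Its groups did not overlap, yet the difference of -1.40 ± 0.37 just missed the threshold (adjusted p = 0.0504). It passed with equal library totals (0.04), with robust limma (0.049) and without WT library 1 (0.016). Nr4a2 stood at 166, 147 and 157 in WT and 110.4, 135 and 136 in Ahr-KO, a small separation that did not pass (-0.30 ± 0.16, adjusted p = 0.27).

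**Figure D2:**
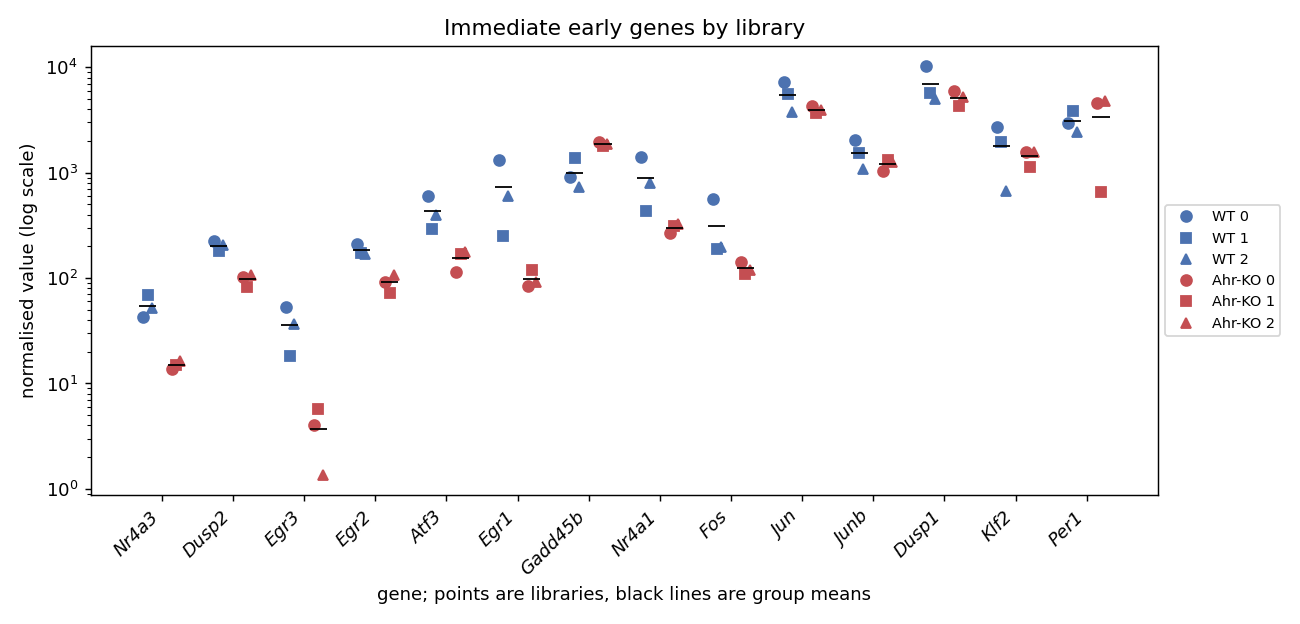
Normalised values (log axis) of the 7 members past the threshold, ordered by p from the left, and of 7 that were not, for each WT (blue) and Ahr-KO (red) library, with group means as black lines. The WT points of Egr1, Nr4a1, Fos and Klf2 are widely spread, the Ahr-KO points mostly close together, and Per1 shows 1 Ahr-KO library far below the other 2.

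AP-1 is a dimer of JUN with FOS or ATF proteins, and in this family the called decrease was in Atf3 alone. Atf3, a stress-induced repressor, stood at 603, 289.9 and 397 in WT and at 114, 171 and 177 in Ahr-KO, with no overlap (-1.44 ± 0.29, 2.71-fold, adjusted p = 0.021). Leaving out WT library 0, or 1 of Ahr-KO libraries 1 and 2, ended its call (adjusted p up to 0.069). It was also lost in limma without the trend (0.058) and with the library number as a replicate block (0.058). Fos stood at 561, 187 and 199 in WT and 143, 109 and 120.0 in Ahr-KO. WT library 0 was far above the other 2 WT libraries, which lay above the Ahr-KO values by a smaller margin. The difference did not pass (-1.15 ± 0.40, 95% interval -2.06 to -0.24, adjusted p = 0.1). With 1 library left out it lay between -1.43 and -0.64 and did not pass in any of these fits. Fosb (102, 110.0 and 74.1 against 50, 81.8 and 54.6) overlapped between groups (adjusted p = 0.17). Fosl1 and Fosl2, whose products are the slower FOS relatives FRA1 and FRA2, had differences of -0.27 and -0.09 (adjusted p = 0.55 and 0.83), and both changed sign after quantile normalisation.

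The 3 JUN genes gave no call. Jun stood at 7274, 5554 and 3731 in WT and at 4255, 3692 and 3897 in Ahr-KO, so the WT libraries spanned a range of which the Ahr-KO libraries occupied the lower end. The difference was -0.43 ± 0.22 (adjusted p = 0.24), and it passed when WT library 2 was left out (-0.69, adjusted p = 0.021). Junb (2063, 1523 and 1076 against 1049, 1308 and 1259) and Jund (3437, 3333 and 1747 against 2134, 2665 and 2687) showed the same order of the WT libraries. Their intervals were -0.83 to 0.18 and -0.71 to 0.45, and each contained 0. Without WT library 2, Jund came close to the threshold (-0.45, adjusted p = 0.052). Maff, a small MAF partner of AP-1 that belongs to another list below, stood at 583, 818 and 652 in WT and 376, 396 and 300.1 in Ahr-KO and fell 1.91-fold (adjusted p = 0.015).

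DUSP genes encode phosphatases that inactivate MAP kinases and so end the signal that induced them. Dusp2, an ERK and p38 phosphatase best known from activated leukocytes, stood at 224, 181 and 207 in WT and at 103, 82.6 and 108 in Ahr-KO. The values were close within each group and far apart between them, and the 2.08-fold decrease passed in every fit that left out 1 library (-1.06 ± 0.18, adjusted p = 0.013). Dusp1, induced by stress and by glucocorticoids, stood at 10219, 5727 and 5029 in WT and 5964, 4304 and 5182 in Ahr-KO. Only WT library 0 was set apart, and the difference did not pass (-0.38 ± 0.25, adjusted p = 0.37). Dusp4, a nuclear phosphatase, was in the reverse order, at 109, 103 and 143 in WT and 156, 160.3 and 213 in Ahr-KO, without overlap but without a call (0.57 ± 0.20, adjusted p = 0.11). Dusp5 (329, 177 and 319 against 190.2, 191 and 151, adjusted p = 0.18) and the cytoplasmic ERK phosphatase Dusp6 (3239, 2931 and 2539 against 3078, 2588 and 2249, adjusted p = 0.55) overlapped. Dusp5 passed without WT library 1, its lowest WT library (-0.87, adjusted p = 0.04).

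GADD45 proteins bind stress kinases and the cell cycle machinery after growth arrest or DNA damage, and all 3 genes were among the 6 members with a difference above 0. Gadd45b stood at 902, 1381 and 725 in WT and at 1954, 1789 and 1883 in Ahr-KO. The 3 Ahr-KO libraries were nearly equal and all above WT, a 1.94-fold rise (0.95 ± 0.21, adjusted p = 0.029). The call was lost without WT library 0 or any 1 Ahr-KO library (highest 0.11), in limma without the trend (0.078) and with the replicate block (0.051). Gadd45g stood at 896, 709 and 355 in WT and at 928, 949.6 and 982 in Ahr-KO, with WT library 2 well below the rest (0.65 ± 0.30, adjusted p = 0.2). Gadd45a, induced by DNA damage, stood at 898, 889 and 516 and 1049, 795 and 872, again lowest in WT library 2, and the groups overlapped (0.27 ± 0.22, adjusted p = 0.47).

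None of the 4 Krüppel-like factors passed the test. Klf2, which laminar flow induces in endothelium, stood at 2730.0, 1946 and 667 in WT and at 1567, 1145 and 1589 in Ahr-KO. WT libraries 0 and 2 held the highest and the lowest value of all 6, and the interval of the difference, -1.16 to 0.95, leaves room for a change in either direction. Its sign turned when WT library 0 was left out (0.31). Without WT library 2 the difference was -0.70 and came close to the threshold (adjusted p = 0.058). Klf4, an endothelial and smooth muscle regulator, stood at 5763, 3349.8 and 3257 in WT and 3016, 2887 and 2897 in Ahr-KO. The groups did not overlap, although WT libraries 1 and 2 were only a little above the tightly grouped Ahr-KO values (-0.44 ± 0.20, adjusted p = 0.21). Klf6 and Klf10 overlapped, with adjusted p = 0.63 and 0.45.

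Among the remaining members, Myc, the growth regulator, stood at 854, 731 and 699 in WT and 492, 414 and 623 in Ahr-KO without overlap (-0.59 ± 0.16, adjusted p = 0.057). It passed with equal library totals (0.033) and in limma-voom (0.044). Ier3, an apoptosis regulator, stood at 832, 619 and 699 and 391, 536 and 555 (-0.54 ± 0.17, adjusted p = 0.082). Zfp36l1, an mRNA decay factor, was even in Ahr-KO, at 5499, 4374 and 4892 in WT and 3993, 3995 and 3918 in Ahr-KO (-0.30 ± 0.10, adjusted p = 0.093, and 0.046 with equal library totals). Its relative Zfp36 stood at 6345, 4776 and 2887 and 4787, 3447 and 5504, with no detectable difference (0.02 ± 0.29, 95% interval -0.64 to 0.68). Csrnp1, a nuclear factor induced by AXIN, stood at 1436, 1043 and 993 and 959.9, 568 and 862 (adjusted p = 0.14).

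Rgs1, a brake on chemokine receptor signalling in lymphocytes, stood at 267, 235 and 147 and 179.7, 90.1 and 96.9 (adjusted p = 0.13). It passed without Ahr-KO library 0 (0.047). Rgs2, which limits Gq signalling in vascular smooth muscle, stood at 344, 306 and 464 and 241, 307 and 228 (adjusted p = 0.13). Both overlapped between groups. Ier2 (3093, 2129 and 1399 against 1645, 1794 and 1644) passed only without WT library 2 (-0.60, adjusted p = 0.049). Ier5, the antiproliferative gene Btg2, the kinase genes Sgk1 and Sik1 and the synaptic gene Arc overlapped too, with log2 differences of -0.23, -0.27, -0.28, -0.41 and -0.43 and adjusted p-values from 0.18 to 0.51. Arc was close to the detection limit, between 4.84 and 9.79 in all libraries.

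The members varied more between libraries of 1 group than the typical gene. The median SD of log2(value + 1) over the 3 WT libraries was 0.36 for the members and 0.20 for all tested genes. In Ahr-KO it was 0.23 and 0.17. Set against the 500 tested genes closest in mean level, the SD was above the typical value for 34 members in WT and for 28 in Ahr-KO. The median ratio to it was 2.07 in WT and 1.57 in Ahr-KO. An SD above 0.4 was found for 18 members in WT (45%, beside 22.4% of all genes) and for 4 in Ahr-KO (10%, beside 18.7%). The WT SD was the larger for 22 of 40 members (55%) and for 57.8% of all genes, so the number of members that spread more in WT was near the background. With 3 libraries a group the difference in spread was not tested.

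The widest WT spreads were those of Egr1 (SD 1.19 in WT and 0.27 in Ahr-KO), Klf2 (1.06 and 0.27), Fos (0.89 and 0.20) and Nr4a1 (0.86 and 0.15). Next came Egr3 (0.76 and 0.78) and Gadd45g (0.69 and 0.04). At the other end, Nr4a2 (0.09 in WT), Zfp36l1 (0.02 in Ahr-KO) and Klf4 (0.03 in Ahr-KO) barely varied in that group. In Ahr-KO, Per1 was alone at 1.64, and the next largest SD was the 0.78 of Egr3.

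**Figure D3:**
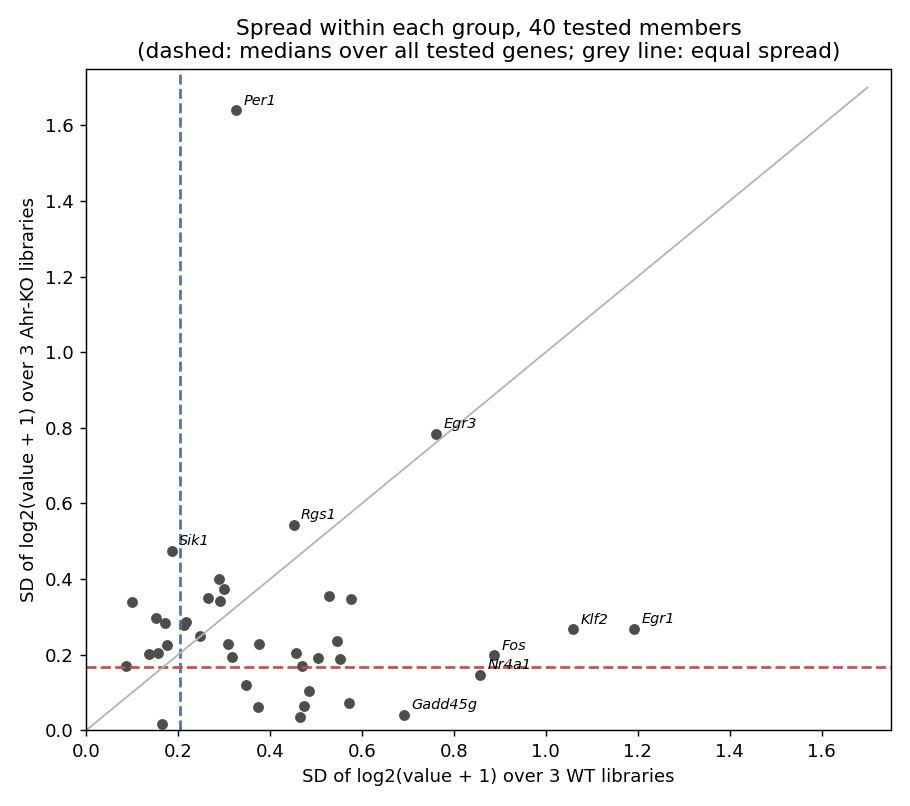
Within-group SD of log2(value + 1) in WT (horizontal) and Ahr-KO (vertical) for the 40 tested members; dashed lines are the medians over all tested genes and the grey line marks equal spread. Egr1, Klf2, Fos and Nr4a1 lie far right and low, Egr3 is wide in both groups, and Per1 stands alone at the top.

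The WT spread had a common direction. WT library 0 held the highest WT value for 29 of 40 members, beside 30.4% of all tested genes, and WT library 2 the lowest for 21, beside 40.2%. The median offset of the members from their own WT mean was 0.26 in library 0, -0.07 in library 1 and -0.13 in library 2. For all tested genes these offsets were at most 0.0033. Members did not share 1 order below library 0. Egr1, Egr3, Nr4a1, Atf3 and Fos were lowest in library 1, whereas Jun, Junb, Jund, Ier2, Klf2, Zfp36 and the 3 Gadd45 genes were lowest in library 2. In Ahr-KO the median offsets were smaller, at 0.04, -0.01 and 0.01 in libraries 0, 1 and 2. These libraries held the highest value for 11, 14 and 15 members, beside 34.2%, 29.2% and 36.5% of all tested genes. They held the lowest for 14, 17 and 9 members, beside 36.8%, 32.2% and 31.0%. Without WT library 0, Dusp2, Egr1 and Nr4a3 were called lower and no member higher. In that fit 4.63% of all tested genes were called.

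**Figure D4:**
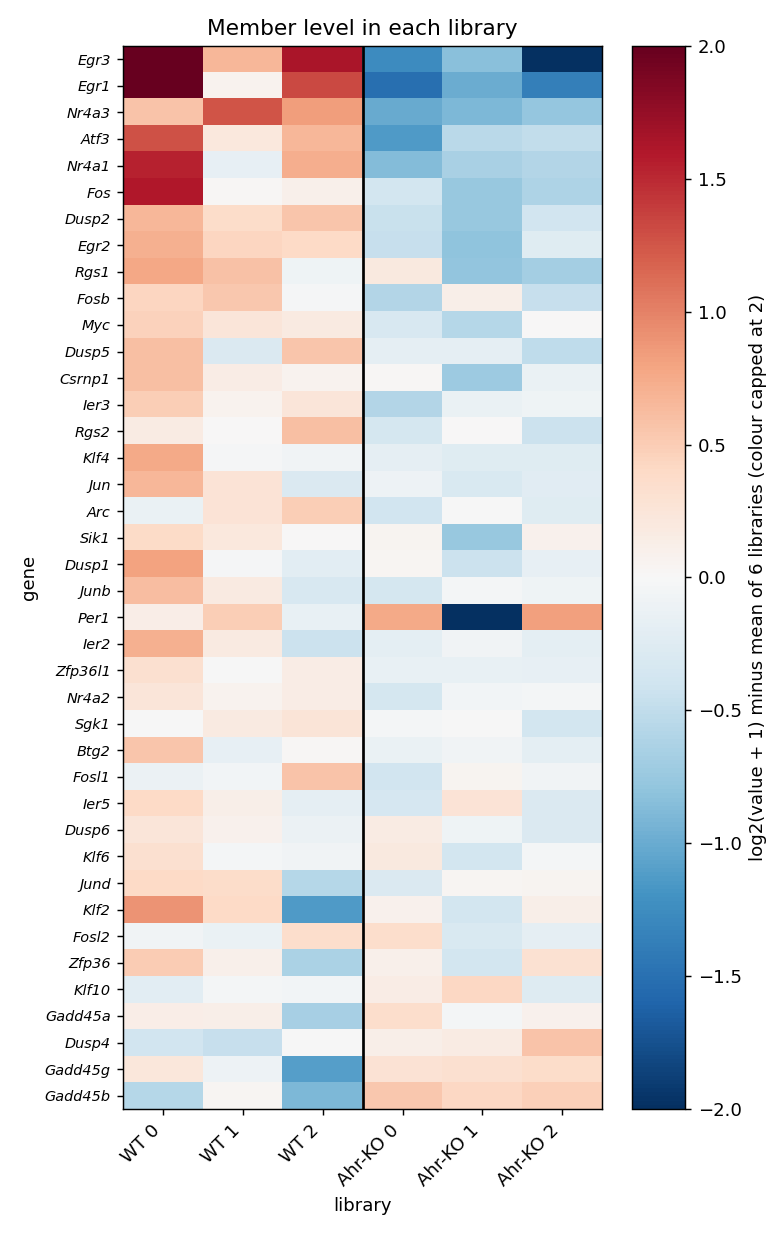
Level of each tested member in each library as log2(value + 1) minus its mean over the 6 libraries (red above, blue below, colour capped at 2), ordered from the largest decrease at the top to the largest rise at the bottom. WT library 0 is red for most members, WT library 2 is blue for many in the lower part, and Per1 is dark blue in Ahr-KO library 1 alone.

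Per1 was the member with the largest spread in Ahr-KO. Its product represses the circadian clock, and the gene responds quickly to glucocorticoids as well as to the clock. It stood at 2984, 3830.3 and 2437 in WT and at 4601, 654 and 4776 in Ahr-KO, so Ahr-KO library 1 alone was low while the other 2 exceeded every WT library. The group difference of -0.32 ± 0.69 (adjusted p = 0.8) turned to 0.63 without that library. Other clock genes, looked up after the Per1 values were seen, did not set Ahr-KO library 1 apart. Per2 stood at 851, 604 and 1428 in Ahr-KO and Per3 at 785, 821 and 1577. Many glucocorticoid-related genes, however, were lowest in the same library. Of the 15 tested, Per1, Sgk1 and Dusp1 included, 10 had their lowest Ahr-KO value in library 1, as did 32.2% of all tested genes. The other 5 were lowest in library 2, among them Sgk1, at 2112, 2160 and 1678 and so highest in library 1. Among the marker lists the count lowest in library 1 varied. It was 6 of 6 for alveolar type 2 and 6 of 8 for endothelial markers. For alveolar type 1, ciliated and cardiac muscle markers it was 0 of 6 each. The type 2 markers summed to 658713, 600165 and 698178 in Ahr-KO libraries 0, 1 and 2, and the endothelial markers to 82305, 71492 and 75702. The values of the 15 summed to 49226, 21637 and 32547 in Ahr-KO libraries 0, 1 and 2 and to 28500.5 to 36978 in WT. Tsc22d3, a glucocorticoid-induced gene, stood at 14179, 2993 and 6319 in Ahr-KO. Ddit4, an inhibitor of mTOR signalling, stood at 3530.0, 776 and 2376. The Krüppel-like factor genes Klf15 (2124, 593 and 1404) and Klf9 (2404, 964 and 1802) had the same order as Tsc22d3 and Ddit4. Fkbp5 stood at 2543, 742 and 719, low in library 2 as well. None of the 15 passed the test between genotypes, and the part of this pattern in the level of Per1 was not tested.

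The clock genes instead set WT library 2 apart, the library in which many members were lowest. Dbp, an output gene of the clock, stood at 112, 133 and 2357 in WT libraries 0, 1 and 2, against 394, 422 and 1559 in Ahr-KO. The clock repressor gene Nr1d1 stood at 309, 865 and 3859.6 in WT and 1965, 2932 and 4619 in Ahr-KO. Arntl, the clock activator BMAL1, had the reverse order, at 1046, 897 and 203 in WT and 857, 1036 and 462 in Ahr-KO. WT library 2 thus held high Dbp and Nr1d1 with low Arntl, WT libraries 0 and 1 the opposite, and Ahr-KO library 2 leaned the way of WT library 2. These 2 were also the libraries with the fewest reads. The part of this difference in the levels of the members was not tested. Without WT library 2, 8 members were called lower, Jun and Ier2 besides the 6 named above, and Gadd45b higher. In that fit 12.1% of all tested genes were called, beside 10.8% with all libraries.

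**Figure D5:**
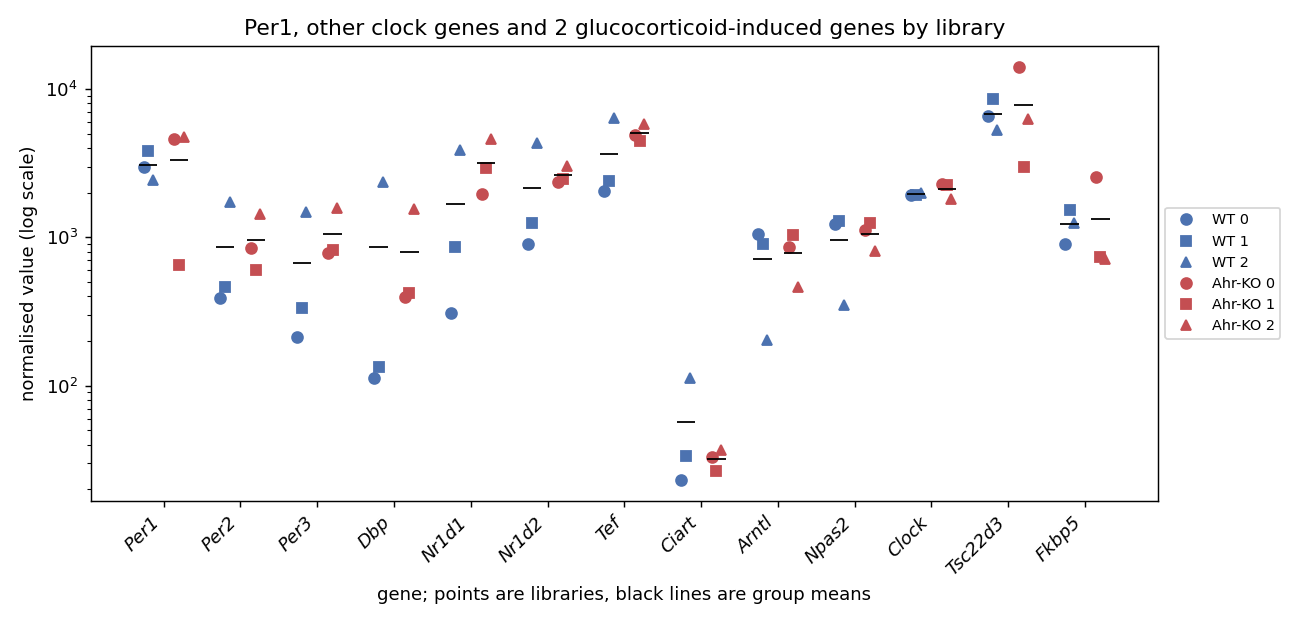
Normalised values (log axis) of Per1, 10 other clock genes and 2 glucocorticoid-induced genes in each WT (blue) and Ahr-KO (red) library, with group means as black lines. WT library 2 is apart from the other WT libraries for Dbp, Nr1d1, Per2, Per3 and Arntl, whereas Ahr-KO library 1 is apart for Per1.

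Genes of the surrounding pathway were called at about the rate of all genes. Of 156 tested genes in 8 companion lists that are not members themselves, 3 rose, 13 fell and 140 did not pass (10.3% called, beside 10.8% of all genes), with a median of -0.08. Among 39 kinases and pre-existing factors upstream, such as the ERK genes, Srf and Creb1, only the ribosomal S6 kinase gene Rps6ka1 changed (1.4-fold lower, adjusted p = 0.042). Srf, the factor that binds CArG boxes, stood at 2068, 2137 and 1792 in WT and 1543, 2007 and 1973 in Ahr-KO (adjusted p = 0.57). Of 18 AP-1 partner factors, 2 fell, Maff and the macrophage and T cell factor Maf (2.2-fold, adjusted p = 0.042). Of 17 genes that restrain ERK signalling, the phosphatase Dusp8 (1.79-fold) and the pseudokinase Trib1 (1.79-fold) fell (adjusted p = 0.016 and 0.028). In the same list the stress-induced pseudokinase Trib3 rose 2.18-fold (adjusted p = 0.015).

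Of 32 effectors that act downstream of, or together with, immediate early factors, 5 fell and 1 rose. The monocyte chemokine Ccl2 stood at 211, 83.8 and 141 in WT and 16.1, 28.9 and 28.6 in Ahr-KO (-2.46 ± 0.38, adjusted p = 0.011), highest in WT library 0. Phlda1 fell 2.12-fold, while Plau, the urokinase gene, rose 1.83-fold (adjusted p = 0.014 and 0.017). Adamts1 and Il6 also fell. No heat shock gene passed among 14. Of 12 genes linked to KLF2 and flow in endothelium, the gap junction gene Gja5 (1.97-fold) and Nqo1, also an AHR target, fell and the receptor gene Tek rose 1.85-fold (adjusted p = 0.0077, 0.0036 and 0.016). Leaving out 1 library ended the calls of Rps6ka1, Maf, Maff, Trib1, Trib3, Dusp8, Phlda1, Plau and Tek in at least 1 fit. The calls of Ccl2, Gja5 and Nqo1 held in each.

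Most T cell, NK cell and B cell markers and some macrophage markers fell, as did 6 members, several of which are active in leukocytes. In whole tissue, fewer cells of a type and less RNA per cell cannot be told apart. Of 8 T cell markers 7 fell, with sums of 1766 to 2349 per WT library and 823 to 1061 per Ahr-KO library. Of 6 NK cell markers 5 fell (2188 to 2738 against 857 to 1260.5), of 6 B cell markers 4 (1098 to 1696 against 527 to 659), and of 7 macrophage markers 3 (14099 to 17284 against 9322 to 14969). Of the other macrophage markers, Csf1r was higher in each Ahr-KO library than in WT without passing (0.20, adjusted p = 0.16), and Marco was listed at 0 in all libraries. The T cell, NK cell and B cell sums did not overlap between groups, whereas the macrophage sums did. No neutrophil marker passed among 6, with a median difference of 0.15. Of 6 mast cell markers, Cpa3, Ms4a2 and Fcer1a fell 5.15-, 4- and 5.7-fold (adjusted p = 0.04, 0.038 and 0.015), whereas the receptor gene Kit rose 3.14-fold (adjusted p = 0.0034). The part of these markers in the decreases of Egr1, Egr2, Egr3, Nr4a3, Atf3 and Dusp2 was not tested.

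Markers outside the leukocytes changed as well. Of 6 fibroblast markers the collagen genes Col1a1 (2.6-fold) and Col3a1 (1.57-fold) fell (adjusted p = 0.0034 and 0.02). The fibroblast sums did not overlap, at 43797 to 54596 per WT library and 26609 to 33639 per Ahr-KO library. Of 6 ciliated cell markers Foxj1, Dnah6 and Dnai2 fell and Tppp3 rose. The ciliated sum, in which Tppp3 had the highest values, was higher in Ahr-KO (9859 to 11705 against 13772 to 16371). The part of these changes in those of the members was not tested. Of 5 mesothelial markers Krt19 rose, whereas the other 4 had differences below 0 that did not pass. Of 8 endothelial markers Pecam1 rose and Emcn fell, and the sums overlapped (59151 to 72181 against 71492 to 82305). No smooth muscle, alveolar type 2, platelet, red cell or cardiac muscle marker passed. The alveolar type 1 markers rose in 4 of 6. Cardiac muscle markers summed to 869.7, 1980.0 and 6303 in the WT libraries, highest in library 2. In Ahr-KO they summed to 1630.2 to 2305. Red cell markers summed to 4829, 16106 and 14184 in WT, lowest in library 0, which held the most immediate early transcripts. The part of these differences in the spread of the members was not tested.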

How the data were processed

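Bulk RNA-seq of total lung was analysed in 6 samples, 3 WT and 3 Ahr-KO, all with Sugen-Hypoxia treatment at day 56. The deposited table gives 1 normalised signal value per gene symbol and library. The build was rn6 and FastQC was run, per the submitters' processing notes. The sources used here do not give the aligner, counter, annotation, strandedness or normalisation. From the values, 96.4% to 97.9% per library lie within 0.05 of whole multiples of a step of 0.806 to 1.40, taken as 1 read; the rest are fractions, so no count test was used. There were 0 unused value columns. Columns number libraries from 0 and sample titles from 1, so columns were assigned to groups only. No pair of libraries in a group agreed within sampling noise (lowest chi-square per gene 15.4).

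Values were transformed to log2(value + 1), entries reaching 1 in 3 or more libraries entered the fit, and genotype was tested with limma 3.58.1 (R 4.3.3) using a mean-variance trend. P-values are 2-sided, adjusted over 15386 genes, with a threshold of 0.05. An exact permutation test of 3 against 3 cannot go below 0.1. Folds are log2(value + 1) differences on the linear scale, which understate changes of low genes. The members, the companion and marker lists and the rule for named genes were chosen with earlier results of these data known. By that rule all members could be named, with library values for those past the threshold, those whose call changed and the most variable, and up to 4 passing genes per companion list. The clock genes, the single cell type markers, Srf, Tsc22d3, Fkbp5, Ddit4, Klf9, Klf15, Adamts1 and Il6 were named outside it, after their values were seen. Some companion genes are not reported here. The code was tested on simulated data. Alternatives were other scalings, filters, pseudocounts and variance models, a replicate block, and libraries left out.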

Additional observations from a re-analysis of the deposited data

How the results depend on the processing

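The members' median difference of -0.35 lay between -0.49 and -0.29 with 1 library left out and was -0.58 without both libraries numbered 2, a larger decrease, although fewer members were called there. With 7 members called (6 lower, 1 higher) and 1655 genes in all (692 higher, 963 lower), limma without the trend called 4 members, 0 of them higher, and 952 genes (301 higher). Equal library totals gave 449 genes higher. With the library number as a replicate block, 899 genes were called (334 higher, 565 lower) and 5 members, 0 of them higher; over all tested genes the deviations of same-numbered libraries correlated at -0.10, 0.07 and -0.07, so the numbers were not taken as pairs, although clock genes such as Dbp and Nr1d1 had the same order by number in both groups and both libraries numbered 2 held the fewest reads. Without both libraries numbered 2, 553 genes (268 higher, 285 lower), 0 members (0 higher, 0 lower) and 7 of 156 companion genes were called, where all libraries gave 16. Leaving out 1 library at a time gave 407 to 1834 genes (135 to 930 higher, 272 to 920 lower), 3 to 9 members (0 to 1 higher, 3 to 8 lower) and 6 to 22 companion genes. Fewer samples were fitted there; the other causes were not tested.

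Signs turned only for genes that were far from the threshold with all libraries (adjusted p of 0.55 or more). Of these, Jund (-0.45, adjusted p = 0.052) and Klf2 (-0.70, adjusted p = 0.058) came close to it without WT library 2. After quantile normalisation the sign turned for Fosl1 (0.0203), Fosl2 (0.0316), Zfp36 (-0.066) and Ahr (-0.0123). With equal totals it turned for Zfp36 (-0.0732) and Ahr (-0.0121), and without both libraries numbered 2 for Fosl2 (0.125) and Zfp36 (-0.438). With 1 library left out, the ranges were -0.29 to 0.0606 for Fosl2, -0.45 to 0.0403 for Jund, -0.29 to 0.28 for Zfp36, -0.70 to 0.31 for Klf2, -0.27 to 0.0132 for Klf6, -0.80 to 0.63 for Per1 and -0.0614 to 0.29 for Ahr. A count test planned on whole reads was not run, since the values are not whole reads. Genes such as Egr3, Arc and Egr4 rest on few reads.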
